A study of Homo sapiens with 5 samples.

Results

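Cells of the breast cancer line MDA-MB-468 from samples labelled with a guide RNA against FOSL1 were split by their own IL7R RNA. Cells with 2 or more IL7R UMIs (unique transcript tags, here called IL7R-positive) were compared with cells with 0 (IL7R-negative). The guide itself was not read in each cell. The split was made apart in the gRNA2 and the gRNA3 sample, and each positive cell was matched to a negative cell of the same sample with nearly the same total of UMIs. The matched cells numbered 532 in each class with gRNA2 and 824 in each class with gRNA3, so that 2712 of the 6841 kept guide cells, out of 14642 kept cells in the whole pool, entered the comparison. The members were thus chosen by the measured IL7R UMI count of each cell, so IL7R's own values are a description without a test, and the gene was left out of all levels of other genes.

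MDA-MB-468 is an established human cell line from a triple-negative breast cancer, and the study asked what changes in it when FOSL1 is raised. The pool held 5 samples, with 1 hashtag antibody for each: in the VPR system a control and samples with FOSL1 guides gRNA2 and gRNA3, and in the HA system a control and HA FOSL1. The labels do not spell out VPR or HA, and they mention 5-FU for the series without saying whether these samples received it. Each group was 1 sample, all run together as 1 library, so no difference between samples has a replicate check, and the intervals given cover counting error only. The guide samples are the only repeats of the split, and their cells share 1 line, 1 library and 1 control.

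IL7R encodes the alpha chain of the interleukin-7 receptor, which pairs with the common gamma chain IL2RG to bind IL7 and with CRLF2 to bind TSLP, and which signals through JAK kinases and STAT5. It is best known from lymphocytes, where it supports survival, and carcinoma cells can also make its RNA. FOSL1 encodes FRA-1, a subunit of AP-1, a dimer of FOS and JUN family proteins that binds a short palindromic DNA motif at promoters and enhancers.

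The promoters of IL7R and of the 2 strongly IL7R-associated genes with an AP-1 motif are shown because the cells differed in the AP-1 gene FOSL1 as well as in IL7R. Sequences are from RefSeq (GRCh38.p14), run from 250 bases before to 50 after an annotated start, and carry the motif TGANTCA in capitals. The motif is its own reverse complement, so 1 scan covers both strands.
IL7R, chr5:35856641-35856940, plus strand: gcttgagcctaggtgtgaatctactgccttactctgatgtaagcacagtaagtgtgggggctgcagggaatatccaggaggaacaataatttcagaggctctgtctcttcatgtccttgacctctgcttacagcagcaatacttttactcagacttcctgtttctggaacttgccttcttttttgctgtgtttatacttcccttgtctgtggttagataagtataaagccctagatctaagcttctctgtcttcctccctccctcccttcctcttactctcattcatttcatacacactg
CXCL8, chr4:73740319-73740618, plus strand: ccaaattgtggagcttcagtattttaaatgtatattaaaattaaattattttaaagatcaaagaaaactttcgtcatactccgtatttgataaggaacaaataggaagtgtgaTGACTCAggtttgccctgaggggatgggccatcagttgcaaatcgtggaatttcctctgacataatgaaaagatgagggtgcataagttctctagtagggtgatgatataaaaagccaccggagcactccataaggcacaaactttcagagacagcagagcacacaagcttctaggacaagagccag
SERPINB7, chr18:63775168-63775467, plus strand: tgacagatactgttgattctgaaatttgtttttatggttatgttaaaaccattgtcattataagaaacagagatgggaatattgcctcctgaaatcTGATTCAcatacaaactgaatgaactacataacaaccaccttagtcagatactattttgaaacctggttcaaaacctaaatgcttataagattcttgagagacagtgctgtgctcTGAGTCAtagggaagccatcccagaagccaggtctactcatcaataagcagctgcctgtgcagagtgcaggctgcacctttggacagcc
The IL7R window holds 0 copies of the motif, the CXCL8 window holds 1 at 137 bases before the start, and the SERPINB7 window shown holds 2. SERPINB7 has 3 windows, 2 of them with the motif, and 1 of those 2 is shown. Of all 35116 windows of this length, 2707 (7.71%) hold it. Of the 26 genes formed by IL7R and the 25 genes named below, 19 had a window. By gene, not by window, the motif was found in 2 of the 8 genes with a window among the 12 highest in IL7R-positive cells. Among the 12 lowest it was found in 0 of the 10 with a window. A match describes the letters of these windows only.

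Kept cells held 48050317 UMIs with gRNA2 (2542 cells) and 85556699 with gRNA3 (4299 cells), and 0 barcodes were found under more than 1 sample. Free RNA in 48909 empty droplets held IL7R at 36.4 CPM (UMIs of the gene scaled to a common total; 95% exact Poisson interval 28.8 to 45.5). The line's markers were present in both IL7R classes: EPCAM, an epithelial adhesion protein, stood between 341 and 357 CPM in the 4 sums of matched guide cells, while PGR had 0 UMIs, ESR1 at most 4.01 CPM and ERBB2 at most 10.6 CPM.

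IL7R RNA was unevenly spread over the guide cells. Its level over all kept cells was 57.2 CPM in the gRNA2 sample (55.1 to 59.4) and 47.1 CPM in the gRNA3 sample (45.7 to 48.6), against 12.9 CPM in the VPR control, 11.3 CPM in the HA control and 113 CPM in HA FOSL1. With gRNA2, 1662 cells (65.4%) had 0 IL7R UMIs, 345 (13.6%) had 1 and 535 (21.0%, exact binomial interval 19.5% to 22.7%) had 2 or more. With gRNA3 these were 2803 cells (65.2%), 657 (15.3%) and 839 (19.5%, 18.3% to 20.7%). If every cell of a sample had the same IL7R level and only its depth varied, 36.3% of gRNA2 cells and 41.3% of gRNA3 cells would be expected at 0 UMIs, far fewer than were seen. The cells with 2 or more UMIs held 87.4% of all IL7R UMIs with gRNA2 and 83.7% with gRNA3, and the highest single cells held 30 and 29. The share with 2 or more was 43.6% in HA FOSL1, 4.24% in the VPR control and 3.76% in the HA control, so that such cells were found among the cells assigned to every sample. After thinning each cell to 5000 UMIs, at least 1 IL7R UMI was left in 15.6% (14.3% to 17.1%) of gRNA2 cells, 15.2% (14.1% to 16.3%) of gRNA3 cells, 31.5% of HA FOSL1 cells, 4.60% of VPR control cells and 3.30% of HA control cells. Thinning left out 5 and 10 cells of the guide samples, 8 of HA FOSL1, 8 of the VPR control and 13 of the HA control.

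**Figure D1:**
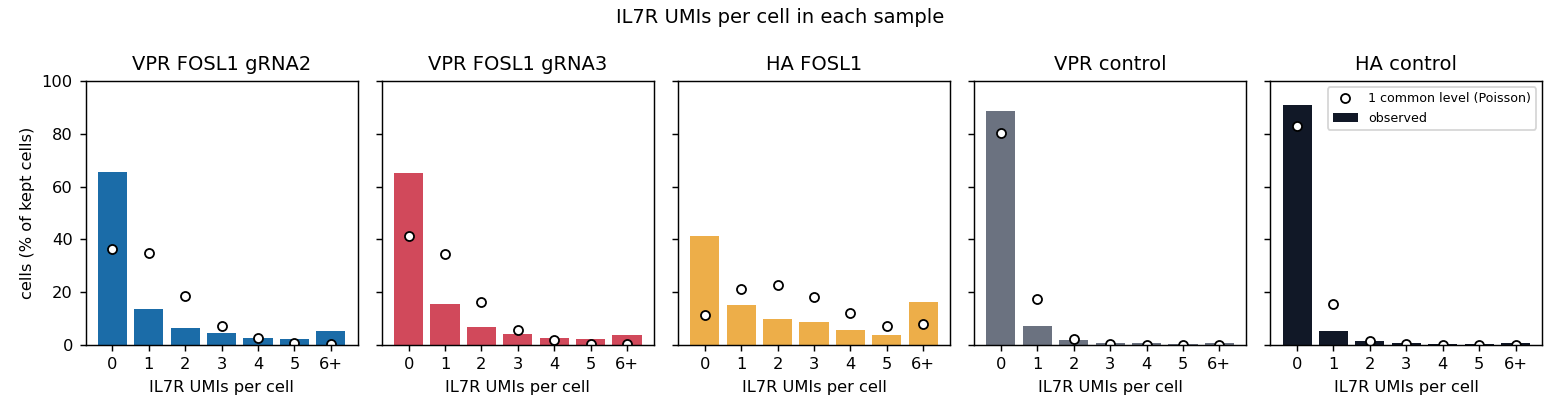
Share of kept cells (percent, vertical axis) by number of IL7R UMIs per cell (horizontal axis) in each of the 5 samples. Bars are observed shares and circles the shares expected if all cells of a sample had 1 common IL7R level, with 65.4% of gRNA2 cells at 0 against 36.3% expected.

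Matching removed the difference in depth between the classes. Before it, IL7R-positive cells had a median of 21314 UMIs against 16149.5 in IL7R-negative cells with gRNA2, and 22647 against 16836 with gRNA3. After it the medians were 21299.5 in both classes with gRNA2, and 22511 and 22512.5 with gRNA3. The median share of mitochondrial UMIs was 9.60% in positive and 10.5% in negative cells with gRNA2, and 9.48% and 10.3% with gRNA3. The share of cells scored in G1 was 21.2% against 22.6% with gRNA2 and 24.3% against 22.6% with gRNA3, so its order differed between the guides. The classes thus had like depth and phase and slightly different mitochondrial shares, whose part in the results below was tested only by a stricter limit on that share. All levels below are CPM of UMIs summed over the cells of a class, in which more cells with the RNA and more RNA per cell cannot be told apart.

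IL7R-positive guide cells had more RNA of FOSL1, of INHBA, DKK1, CXCL8 and COL5A2 and of the caveola coat, and less RNA of S100A8, AKR1C2, CYP1B1 and CLDN10 and of luminal and secretory genes. Of 5769 genes whose mean level was 20 CPM or more, 131 (2.27%) differed at least 1.5-fold in the same direction in both guides, 92 (1.59%) higher and 39 (0.676%) lower in IL7R-positive cells. The median log2 ratio of CPM + 1 over these genes was -0.00 with gRNA2 and 0.01 with gRNA3. In gRNA2 alone 177 of 5786 genes (3.06%) passed this fold, and in gRNA3 alone 157 of 5742 (2.73%), 108 of them higher (1.88%). The ratios with gRNA2 correlated with those with gRNA3 across the 5769 genes (Pearson 0.87, Spearman 0.74), as a description of genes measured in 1 library. In a model of the 4 sums with the guide as a block, 3454 of 13348 genes tested (25.9%) passed an edgeR quasi-likelihood adjusted p of 0.05, 1950 higher (14.6%) and 1504 lower (11.3%). That model has 1 residual degree of freedom, its spread between guides is near counting noise, and DESeq2 called 655 genes, so levels and ratios are given first below. Tested genes of a list said to rise or fall below are those that this edgeR model called. The lists were not counted under DESeq2. FOSL1 was named whatever its ratio. The 12 genes farthest up and 12 farthest down were named by their ratios in these cells, so their values here are a description. All 25 passed edgeR in the same sums, which that choice fixed for all but FOSL1. Some, such as KRTAP3-1 and CXCL8, reached the level of 20 CPM only through the positive class. All 25 kept their direction when the cell with the most UMIs of the gene was left out of each class.

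**Figure D2:**
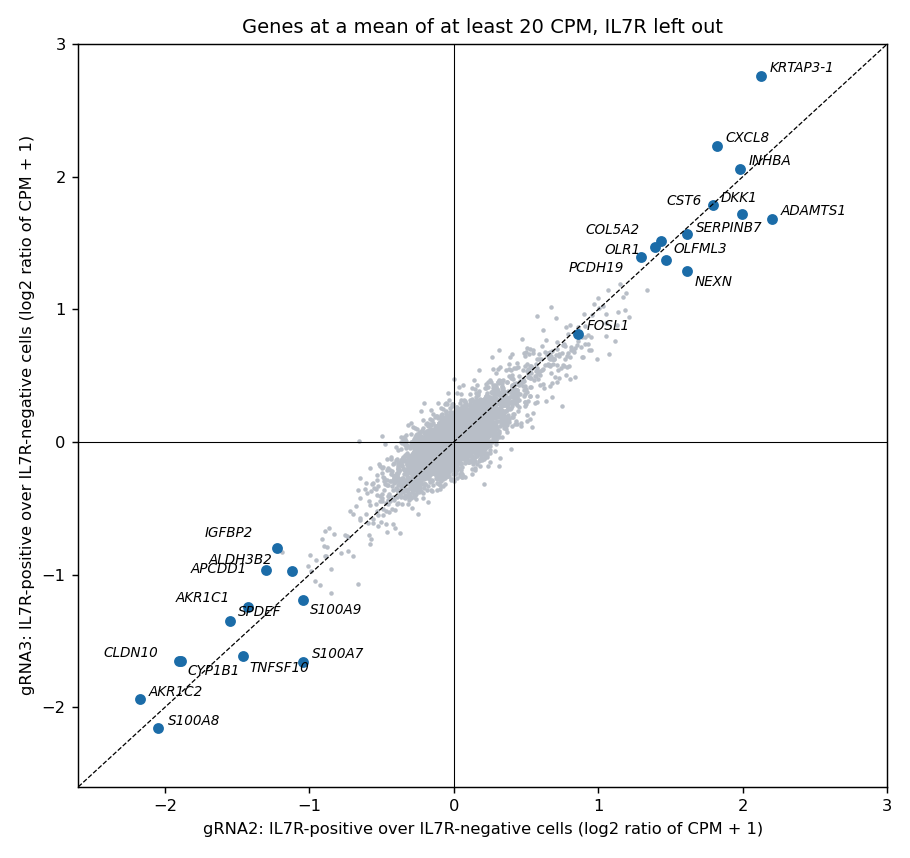
Log2 ratio of CPM + 1 in IL7R-positive over IL7R-negative cells with gRNA2 (horizontal axis) and gRNA3 (vertical axis) for genes whose mean level was 20 CPM or more, with the 25 named genes in blue and equality as a dashed line. The named genes lie on the same side of 0 in both guides, as for KRTAP3-1 (2.12 and 2.76) and S100A8 (-2.05 and -2.16).

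FOSL1 was higher in IL7R-positive cells although all cells of a sample were labelled with the same guide. It stood at 85.1 CPM in negative and 155 CPM in positive cells with gRNA2 (log2 ratio 0.86, interval 0.75 to 0.97), and at 82.3 and 145 CPM with gRNA3 (0.81, 0.73 to 0.90). A FOSL1 UMI was found in 85.9% (82.7% to 88.7%) of positive and 62.6% (58.3% to 66.7%) of negative cells with gRNA2, and in 85.3% and 66.0% with gRNA3. Negative guide cells still lay far above the VPR control, where all IL7R-negative cells, not matched on depth, held FOSL1 at 6.87 CPM. Of 12 genes of AP-1 subunits tested, 2 rose (FOSL1 and FOSL2) and 4 fell (FOS, FOSB, JUN and JUND). FOS, an early-response partner of JUN proteins, went from 68.0 to 29.3 CPM with gRNA2 (-1.19) and from 32.0 to 17.5 CPM with gRNA3 (-0.83). FOSB went from 81.6 to 47.9 CPM (-0.76) and from 43.2 to 26.3 CPM (-0.70). FOSL2, a close relative of FOSL1, went from 13.6 to 18.2 CPM (0.40) and from 13.9 to 19.7 CPM (0.47), and JUN changed by -0.15 and -0.14. Members of the FOS family thus moved in both directions between the classes; the 2 of 12 AP-1 genes that rose stand beside 14.6% of all genes tested, and the 4 that fell beside 11.3%. The median over the 6 subunits at 20 CPM or more was -0.18 and -0.09.

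Several of the 12 highest genes encode secreted proteins. INHBA, which encodes the subunit of activin A, stood at 19.7 CPM in negative and 80.6 CPM in positive cells with gRNA2 (log2 ratio 1.98, 1.78 to 2.18), and at 18.5 and 80.5 CPM with gRNA3 (2.06, 1.90 to 2.22). An INHBA UMI was present in 47.9% of positive and 19.9% of negative gRNA2 cells, and in 51.6% and 21.4% with gRNA3. DKK1, a secreted inhibitor of Wnt signalling, stood at 86.5 and 348 CPM (2.0, 1.90 to 2.10) with gRNA2 and at 84.7 and 281 CPM (1.72, 1.64 to 1.80) with gRNA3. The INHBA ratios of the guides overlapped within counting error and the DKK1 ratio was larger with gRNA2, and the DKK1 difference was spread over many cells, with a UMI in 91.0% of positive against 54.7% of negative gRNA2 cells. CST6, the secreted cysteine protease inhibitor cystatin E/M, went from 33.0 to 117 CPM (1.79) and from 34.3 to 121 CPM (1.78). ADAMTS1, a secreted metalloprotease of the matrix, went from 15.4 to 74.6 CPM (2.20, 1.98 to 2.42) and from 31.5 to 103 CPM (1.68, 1.55 to 1.81). OLFML3, a secreted olfactomedin-domain protein, went from 11.5 to 33.6 CPM (1.47) and from 32.3 to 85.1 CPM (1.37). For ADAMTS1 and OLFML3 the negative class of gRNA3 stood well above that of gRNA2, and the ADAMTS1 ratio was smaller with gRNA3 beyond counting error.

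CXCL8, the neutrophil chemokine interleukin-8, stood at 9.14 CPM in negative and 34.8 CPM in positive cells with gRNA2 (1.82, 1.54 to 2.11) and at 10.2 and 51.5 CPM with gRNA3 (2.23, 2.03 to 2.44). Its RNA lay in a minority of cells, 14.1% of positive and 9.21% of negative cells with gRNA2 and 19.8% and 8.37% with gRNA3, and 1 positive gRNA3 cell held 145 of its 1038 UMIs. Without the top cell of each class the log2 ratio was 1.73 and 2.13. Of 10 chemokine and cytokine genes tested, 8 rose and 0 fell, beside 14.6% and 11.3% of all genes tested. Among them CXCL1 went from 8.56 to 18.8 CPM (1.05) and from 8.86 to 27.7 CPM (1.54), and CCL20 from 2.60 to 6.6 CPM (1.08) and from 2.50 to 9.24 CPM (1.55). Of 10 genes of TGF-beta and activin signalling tested, 7 rose and 0 fell, beside the same shares. FST, the extracellular antagonist that binds activin, went from 5.28 to 21.0 CPM (1.81) and from 6.57 to 18.2 CPM (1.34), and TGFB1 from 16.8 to 31.6 CPM (0.88) and from 23.5 to 39.2 CPM (0.72). The activin subunit and its antagonist were therefore higher in the same class of cells.

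The other 6 of the 12 highest genes encode proteins of the matrix, the cell surface and the inside of the cell. KRTAP3-1, a hair keratin-associated protein, stood at 9.06 and 42.8 CPM with gRNA2 (2.12, 1.85 to 2.41) and at 8.71 and 64.7 CPM with gRNA3 (2.76, 2.55 to 2.97). COL5A2, a chain of fibrillar collagen V, went from 36.4 to 100.3 CPM (1.44) and from 31.7 to 92.5 CPM (1.51). SERPINB7, a protease inhibitor of the serpin family, went from 16.9 to 53.8 CPM (1.61) and from 20.9 to 64.1 CPM (1.57). KRTAP3-1 was the one of the 12 highest genes farthest from 0 on the mean of both guides. NEXN, an actin-binding protein, went from 15.5 to 49.6 CPM (1.61) and from 17.5 to 44.2 CPM (1.29). OLR1, a scavenger receptor for oxidised lipoprotein, went from 16.4 to 44.7 CPM (1.39) and from 13.3 to 38.8 CPM (1.47). PCDH19, a protocadherin, went from 19.6 to 49.7 CPM (1.30) and from 22.5 to 60.7 CPM (1.39). In each of these genes the positive class stood above the negative class of either guide.

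The lowest mean ratio belonged to S100A8, and 2 more S100 genes, which encode calcium-binding proteins, were among the 12 lowest. S100A8, a subunit of calprotectin, stood at 68.6 CPM in negative and 15.9 CPM in positive cells with gRNA2 (-2.05, -2.27 to -1.83), and at 99.1 and 21.4 CPM with gRNA3 (-2.16, -2.31 to -2.01). Its partner S100A9 stood at 654 and 316 CPM (-1.05) with gRNA2 and at 807 and 354 CPM (-1.19) with gRNA3. S100A7, the skin protein psoriasin, went from 54.8 to 26 CPM (-1.04) and from 113 to 35.2 CPM (-1.66). A few cells weighed on these sums: 1 negative gRNA3 cell held 235 of the 1945 S100A8 UMIs of its class, and 1 cell held 398 of 2225 S100A7 UMIs. Without the top cell of each class S100A8 gave -2.15 and -2.02 and S100A7 -1.15 and -1.46. Of 11 S100 genes tested, 6 fell and 1 rose, beside 11.3% and 14.6% of all genes tested. Only S100A7, S100A8 and S100A9 differed at least 1.5-fold among the 10 at 20 CPM or more. S100A6 changed by -0.12 and -0.06 and S100A10 by 0.06 and 0.03, so the family median was -0.09 and -0.06.

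AKR1C2, an aldo-keto reductase that inactivates steroids, stood at 117 and 25.2 CPM with gRNA2 (-2.17, -2.35 to -2.0) and at 113 and 28.7 CPM with gRNA3 (-1.94, -2.07 to -1.81). An AKR1C2 UMI was found in 27.3% of positive and 63.5% of negative gRNA2 cells, and in 31.7% and 65.7% with gRNA3. Its near-identical neighbour AKR1C1 went from 149 to 54.9 CPM (-1.43) and from 152 to 63.7 CPM (-1.24), and reads could be split wrongly between the pair. CYP1B1, a cytochrome P450 that hydroxylates oestrogens and aromatic compounds, went from 152 to 40.2 CPM (-1.89) and from 174 to 55.0 CPM (-1.65), and ALDH3B2, an aldehyde dehydrogenase, from 33.6 to 14.9 CPM (-1.12) and from 37.6 to 18.6 CPM (-0.98). The other genes of the NRF2 and aldo-keto reductase list did not share the size of this difference: 5 of 11 tested fell and 2 rose, with the NRF2 target NQO1 at -0.31 and -0.29 and GCLM, a subunit of the enzyme of glutathione synthesis, at 0.10 and 0.08. Among all genes tested 11.3% fell and 14.6% rose, and the list median was -0.19 and -0.12.

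CLDN10, a tight-junction claudin, went from 92.8 to 24.0 CPM (-1.90) and from 84.8 to 26.3 CPM (-1.65). SPDEF, an ETS-family transcription factor of luminal and secretory epithelium, went from 51.0 to 16.8 CPM (-1.55) and from 46.7 to 17.7 CPM (-1.35). TNFSF10, the death ligand TRAIL, went from 35.1 to 12.1 CPM (-1.46) and from 37.9 to 11.7 CPM (-1.61). These 3 genes were lower in the positive class by a like ratio in both guides. APCDD1, a membrane inhibitor of Wnt signalling, went from 32.7 to 12.7 CPM (-1.30) and from 30.1 to 14.9 CPM (-0.96), the opposite direction to the Wnt inhibitor DKK1. IGFBP2, which binds insulin-like growth factors, went from 48.3 to 20.1 CPM (-1.22) and from 41.1 to 23.2 CPM (-0.80).

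**Figure D3:**
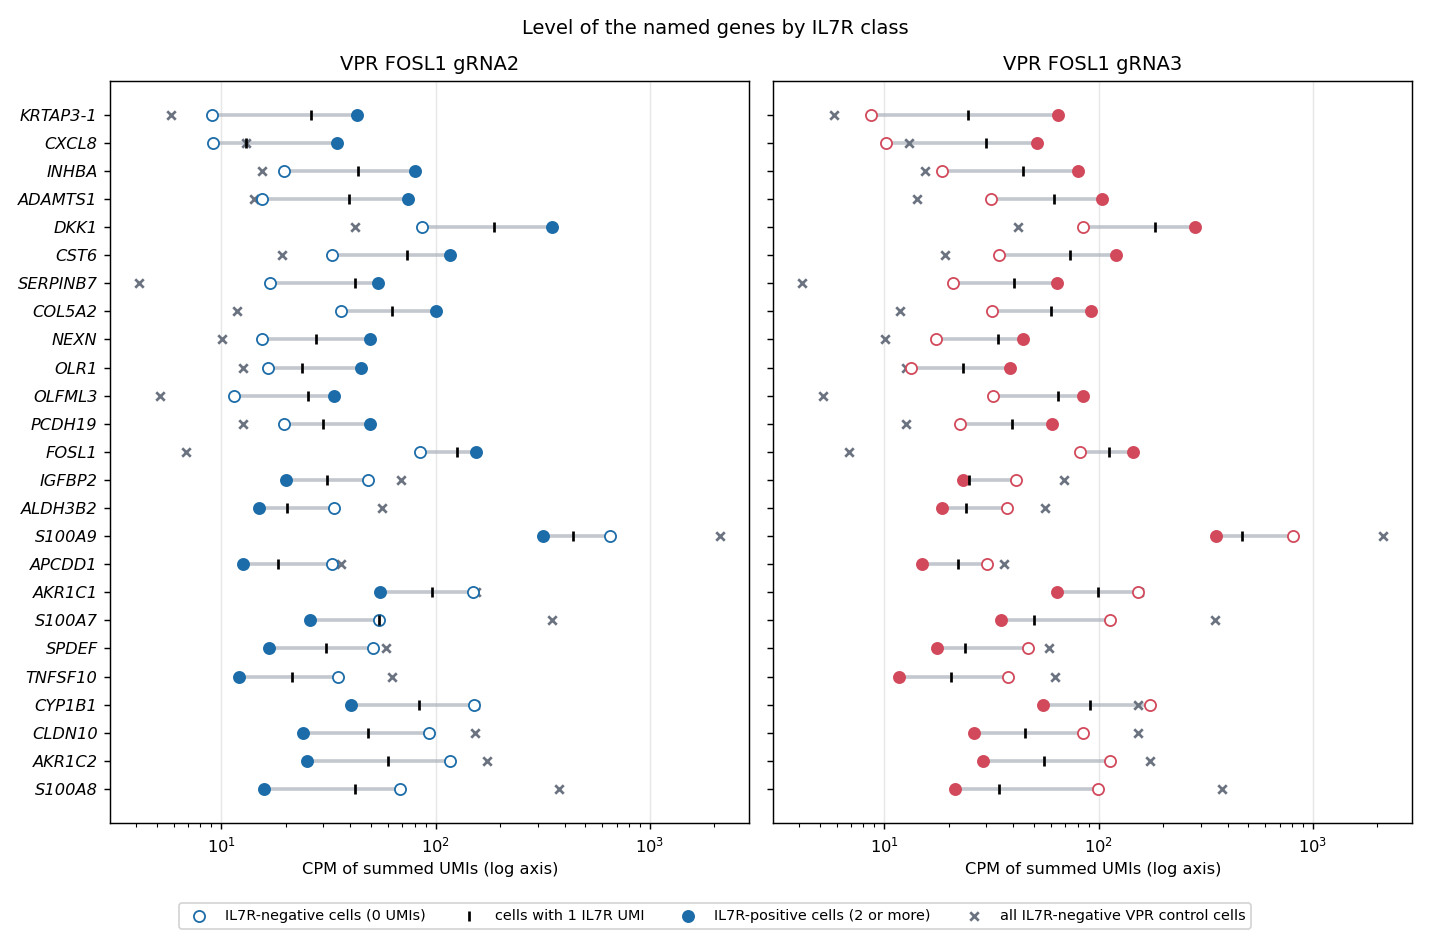
Level in CPM (log axis) of the 25 named genes with gRNA2 (left) and gRNA3 (right). Open circles are IL7R-negative and filled circles IL7R-positive cells. Ticks are cells with 1 IL7R UMI, and crosses are all IL7R-negative cells of the VPR control, not matched on depth. For FOSL1 the negative guide cells, at 85.1 and 82.3 CPM, sit far from the control cross at 6.87 CPM, whereas for INHBA they sit near the cross at 15.5 CPM.

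Apart from PIK3R1, the IL7 receptor's own partners were low or did not move far. IL7, the ligand, had 0 UMIs in all 4 sums of guide cells, where a count of 0 allows up to 0.252 CPM in the smallest sum. IL2RG, CRLF2, TSLP, JAK3 and PIK3CD were at most 1.15 CPM. Of 10 genes of the IL7 and TSLP receptor pathway tested, 2 rose and 1 fell, beside 14.6% and 11.3% of all genes tested. Of the 5 at a mean of 20 CPM or more, 0 differed by 1.5-fold in both guides. PIK3R1, under that mean level, did pass this fold. JAK1, the kinase that binds the IL7R chain, went from 114 to 128 CPM (0.17, 0.06 to 0.27) and from 115 to 121 CPM (0.07, -0.01 to 0.16), STAT3 from 132 to 155 CPM (0.23) and from 147 to 173 CPM (0.24), and PIK3R1, the regulatory subunit of PI3-kinase, from 24.5 to 14.8 CPM (-0.69) and from 21.8 to 13.9 CPM (-0.62). Of 11 target and feedback genes of STAT5 tested, 4 rose (SOCS2, PIM1, BCL2L1 and CCND1) and 2 fell (MYC and MCL1), beside the same shares of all genes. SOCS2, a feedback inhibitor of JAK signalling, went from 1.34 to 4.84 CPM (1.32, 0.77 to 1.83) and from 1.48 to 6.06 CPM (1.51, 1.10 to 1.89), the survival kinase gene PIM1 from 8.14 to 13.3 CPM (0.64) and from 8.86 to 13.3 CPM (0.54), and the cyclin gene CCND1 from 548 to 630 CPM (0.20) and from 509 to 598 CPM (0.23). The feedback gene CISH, at 1.93 and 0.835 CPM with gRNA2 and at 1.94 and 1.49 CPM with gRNA3, did not pass the test (edgeR adjusted p = 0.11). The STAT5 genes therefore did not share a direction.

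Of 10 chromosomal neighbours of IL7R on 5p13 tested, 4 rose and 0 fell, beside 14.6% and 11.3% of all genes tested. SPEF2, a sperm flagellar gene, went from 10.3 to 19.95 CPM (0.89, 0.59 to 1.19) and from 11.3 to 19.1 CPM (0.71, 0.48 to 0.94), and CAPSL from 1.26 to 3.17 CPM (0.89) and from 1.02 to 2.63 CPM (0.85). PRLR, the prolactin receptor gene, went from 50.2 to 60.8 CPM (0.27) and from 41.9 to 55.9 CPM (0.41), and NADK2 from 27.6 to 29.6 CPM (0.10) and from 28.1 to 33.2 CPM (0.23). The median over the 7 neighbours at 20 CPM or more was 0.03 and -0.00, near that of all genes.

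Among the gene lists with at least 3 members at 20 CPM or more, the caveola coat stood highest; the chemokine and cytokine list, with 2 such members, had a median of 1.05 and 1.28. CAV1, the main coat protein of caveolae, went from 609 to 1394 CPM (1.19, 1.15 to 1.23) and from 689 to 1498 CPM (1.12, 1.09 to 1.15), CAV2 from 283 to 452 CPM (0.67) and from 291 to 455 CPM (0.64), and CAVIN1 from 141 to 269 CPM (0.93) and from 154 to 269 CPM (0.80). All 3 members at 20 CPM or more differed at least 1.5-fold in both guides, and 4 of 5 tested rose. All 9 targets of YAP and TEAD tested rose, with a median of 0.61 and 0.65 over the 6 at 20 CPM or more. F3, tissue factor, went from 50.5 to 112 CPM (1.14) and from 46.2 to 92.3 CPM (0.98), CTGF, a matricellular protein, from 104 to 163 CPM (0.64) and from 88.8 to 152 CPM (0.77), and AXL, a receptor tyrosine kinase, from 2.18 to 8.52 CPM (1.58) and from 2.50 to 9.63 CPM (1.60). Among all genes tested 14.6% rose. At 20 CPM or more, 1.59% of all genes were higher by 1.5-fold in both guides, and the median of all genes was near 0.

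Epithelial structure genes moved in both directions. The counts that follow stand beside 14.6% of all genes tested that rose and 11.3% that fell. Of 7 basal and stress keratins tested, 4 rose and 2 fell: KRT17, a keratin of injured epidermis, went from 621 to 934 CPM (0.59) and from 618 to 955 CPM (0.63), KRT14 from 122 to 218 CPM (0.84) and from 147 to 206 CPM (0.49), while KRT15 went from 62.2 to 41.2 CPM (-0.58) and from 60.1 to 43.1 CPM (-0.47). Of 4 simple epithelial keratins 3 rose, among them KRT18 from 1967 to 2812 CPM (0.52) and from 1751 to 2564 CPM (0.55). Of 8 genes of laminin-332 and the hemidesmosome tested 6 rose and 0 fell, with the linker DST from 72.6 to 121 CPM (0.73) and from 71.6 to 114 CPM (0.66). Of 7 mesenchymal genes tested 6 rose and 0 fell, among them TAGLN, an actin-binding protein of smooth muscle, from 15.7 to 33.9 CPM (1.06) and from 16.1 to 36.8 CPM (1.14). Of 13 epithelial junction genes tested 4 rose and 4 fell, with a median of 0.02 and -0.03. Of 6 luminal and secretory genes tested 5 fell and 0 rose: SLPI, a secreted protease inhibitor, went from 316 to 162 CPM (-0.96) and from 327 to 175 CPM (-0.89), and CLU, the chaperone clusterin, from 40.2 to 21.4 CPM (-0.88) and from 33.7 to 19.0 CPM (-0.80). A further pair of lists was drawn up from earlier results on these samples and is not independent evidence of direction: of 20 genes raised in the guide samples 18 rose in IL7R-positive cells and 0 fell, and of 15 lowered ones 14 fell and 1 rose.

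**Figure D4:**
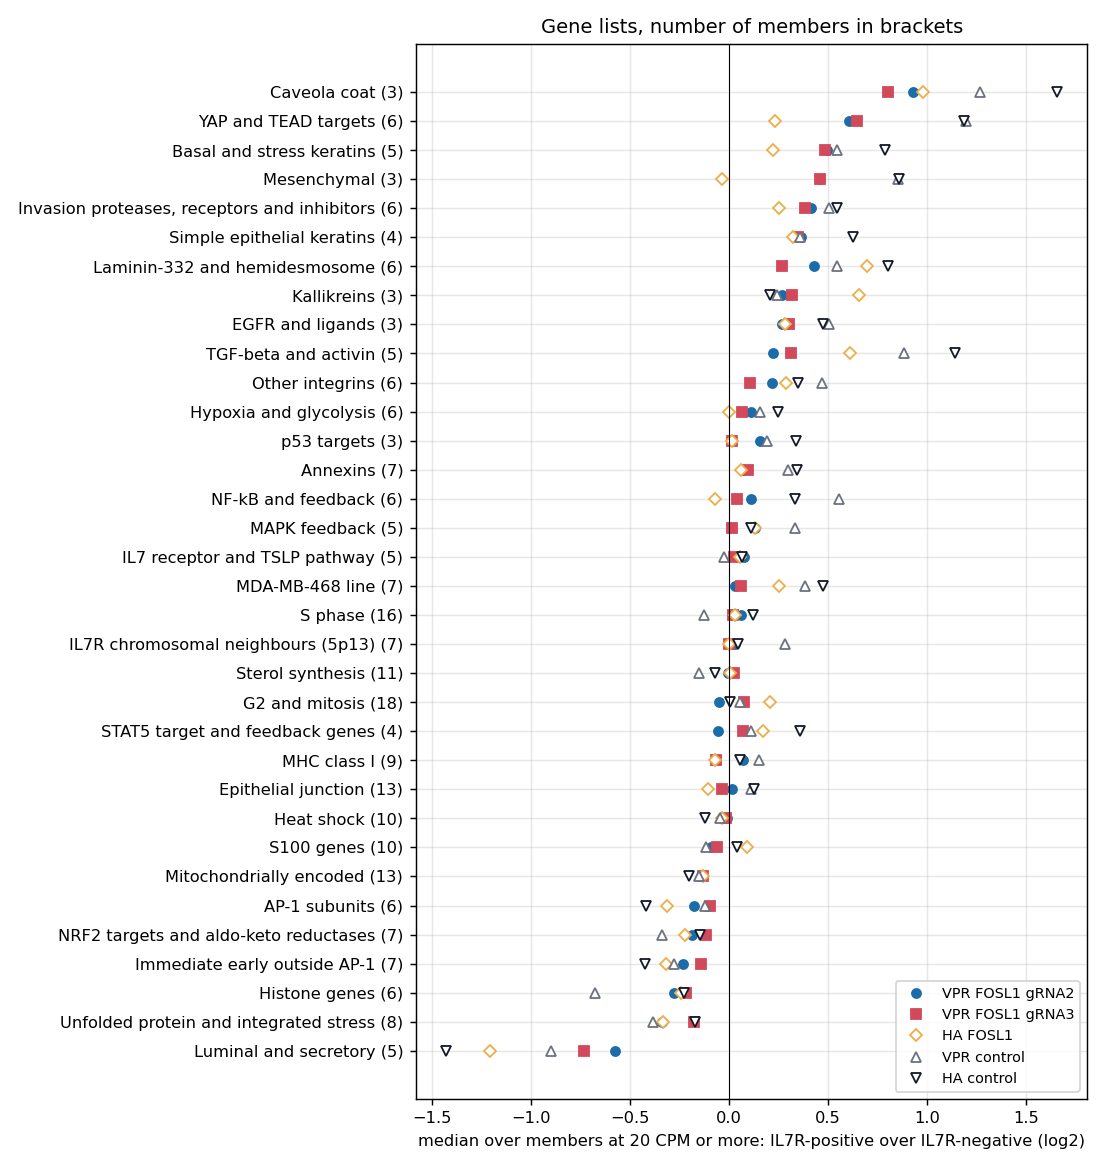
Median log2 ratio of IL7R-positive over IL7R-negative cells (horizontal axis) over the members at 20 CPM or more of each gene list with at least 3 such members, the lists chosen on these samples left out, with the number of members in brackets; filled marks are the guides and open marks HA FOSL1 and both controls. Of the lists plotted, the caveola coat is highest in both guides (0.93 and 0.80) and the luminal and secretory list lowest (-0.57 and -0.73).

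Markers of other cell types, the cell cycle and mitochondrial RNA were set beside these differences. Of 18 blood cell markers, 11 had 0 UMIs in the guide cells, among them CD3D, CD3E, CD4, CD8A, TRAC and MS4A1, and the summed level of the list went from 16.7 to 9.85 CPM with gRNA2 and from 15.9 to 8.09 CPM with gRNA3. Nearly all of that sum was CD14, at 16 and 8.52 CPM and at 15.4 and 7.25 CPM. Of 11 fibroblast and endothelial markers, 4 (COL1A2, DCN, LUM and PDGFRB) had 0 UMIs, and the list's sum went from 5.87 to 3.92 CPM and from 5.55 to 4.77 CPM. IL7R-positive cells thus held no more of either list than IL7R-negative cells. Of 18 S phase genes 4 rose and 1 fell, and of 18 genes of G2 and mitosis 5 rose and 1 fell. Their medians were 0.06 and 0.02 and -0.05 and 0.08. Among all genes tested, 14.6% rose and 11.3% fell. Of 13 mitochondrially encoded genes 10 fell and 0 rose, and their sum went from 102310 to 94057 CPM and from 101822 to 92035 CPM. Histone genes fell in 6 of 7 tested, with a median of -0.27 and -0.22.

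Cells just outside the threshold lay between the classes in the named genes. With gRNA2, 334 cells with 1 IL7R UMI were used, with a median of 19337 UMIs, and with gRNA3 637 cells with 19738, somewhat shallower than the matched classes. In both guides all 12 of the highest and all 12 of the lowest genes stood, in cells with 1 UMI, between the negative and the positive level, and S100A7 with gRNA2 did so only barely. The genes were chosen for the gap between these same levels, which favours a value in between. The share of all genes that lay in between was not counted. The median log2 ratio of 1 UMI against 0 was 1.10 and 0.97 for the highest genes and -0.70 and -0.88 for the lowest. Just inside the threshold, cells with 2 or 3 UMIs (276 with gRNA2 and 474 with gRNA3) were set beside cells with 4 or more (256 and 350). INHBA stood at 43.6 CPM in cells with 1 UMI, 58.4 CPM with 2 or 3 and 101 CPM with 4 or more in gRNA2, and at 44.4, 64.8 and 99.4 CPM in gRNA3. FOSL1 stood at 126, 137 and 172 CPM and at 112, 129 and 165 CPM, and AKR1C2 at 59.9, 33.7 and 17.2 CPM and at 55.6, 34.2 and 22.1 CPM. These 3 genes were ordered by IL7R UMIs in both guides. CXCL8 was not: it stood at 13.1, 19.8 and 49.0 CPM with gRNA2, and at 29.9, 57.9 and 43.8 CPM with gRNA3. One positive gRNA3 cell held 145 of the 1038 CXCL8 UMIs of its class, and these steps were not summed without it. When cells with 1 UMI were matched to negative cells of their own depth, the CXCL8 log2 ratio was 0.09 on the mean of the guides.

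The named genes also differed between cells matched coarsely on FOSL1 UMIs, a matching that did not make FOSL1 equal. Positive and negative cells were matched on their FOSL1 UMIs as well as on depth, an alternative added after the values were seen. All cells above a low FOSL1 count were pooled together in this matching. It left 495 cells of each class with gRNA2 and 783 with gRNA3. The FOSL1 log2 ratio was then 0.17 on the mean of both guides, still raised beyond counting error in both. Among all 5748 genes at 20 CPM or more under this matching, 71 were higher and 35 lower by 1.5-fold in both guides. All 12 of the highest genes differed at least 1.5-fold on the mean of the guides, with a median of 1.47 (0.98 to 2.24), and all 12 of the lowest, with a median of -1.44. These genes were chosen by their ratios in largely the same positive cells, so both counts are a description and not a test. The count over all genes asked for the fold in each guide, and these counts asked for it only on the mean. INHBA gave 1.86, DKK1 1.69, CST6 1.55 and OLFML3 0.98 on that mean, and AKR1C2 -1.83 and IGFBP2 -0.78.

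IL7R-negative guide cells were also set beside the IL7R-negative cells of the VPR control. FOSL1 stood at 71.4 CPM with gRNA2 and 67.8 CPM with gRNA3 against 6.87 CPM in the control, and SERPINB7 at 19.4 and 19.9 CPM against 4.15 CPM. INHBA stood at 17.9 and 18.7 CPM against 15.5 CPM, CYP1B1 at 159 and 175 CPM against 153 CPM and AKR1C1 at 158 and 164 CPM against 154 CPM. S100A8 stood at 78.5 and 93.4 CPM against 376 CPM. In these sums over all IL7R-negative cells, FOSL1, SERPINB7 and S100A8 differed from the control several-fold and CYP1B1 and AKR1C1 little. INHBA depended on which cells were summed: the negative cells matched to positive ones held it at 7.16 CPM in the control, against 19.7 and 18.5 CPM in the guides. Both guides were set against the same control cells.

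The same split was made in the 3 samples that had not been used to name the genes. It gave 570 cells of each class in HA FOSL1, 110 in the VPR control and 126 in the HA control, and the median depth in HA FOSL1 was 21694.5 UMIs in positive and 19844.5 in negative cells. At 1.5-fold, 256 of 5713 genes (4.48%) differed in HA FOSL1, 484 of 5834 (8.3%) in the VPR control and 577 of 5833 (9.89%) in the HA control, the last 2 from few cells. Of the 12 genes highest in the guides, 11 were higher in positive cells of HA FOSL1 (9 by 1.5-fold, median 1.30), 12 in the VPR control (12 by 1.5-fold, median 2.55) and 12 in the HA control (12 by 1.5-fold, median 2.62). All 12 of the lowest were lower in each of these samples, with medians of -1.94, -1.73 and -1.82, and by 1.5-fold 12 in HA FOSL1, 10 in the VPR control and 9 in the HA control. Of all genes at this level, 2.99% in HA FOSL1, 5.33% in the VPR control and 6.36% in the HA control were higher by 1.5-fold, and 1.49%, 2.97% and 3.53% lower. Across all genes, the ratios with gRNA2 correlated with those in HA FOSL1 at Pearson 0.69 and Spearman 0.57 (5747 genes), with those in the VPR control at 0.72 and 0.57 (5819 genes) and with those in the HA control at 0.77 and 0.61 (5817 genes), as descriptions within 1 library.

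FOSL1 itself was higher in IL7R-positive cells of every sample. It stood at 28.5 and 79.2 CPM in HA FOSL1 (1.44, 1.27 to 1.62), at 10.3 and 27.9 CPM in the VPR control (1.35, 0.72 to 1.99) and at 5.94 and 45.8 CPM in the HA control (2.75, 2.10 to 3.44). Neither control carries a FOSL1 guide or construct by its label. INHBA stood at 87.0 and 214 CPM in HA FOSL1, at 7.16 and 169 CPM in the VPR control (4.38, 3.77 to 5.03) and at 14 and 235 CPM in the HA control (3.98, 3.54 to 4.44). In the controls the positive class thus held INHBA at more than the 80.6 CPM of the guides, and the negative class at less than 19.7 CPM. AKR1C2 stood at 46.5 and 12 CPM, at 156 and 27.9 CPM and at 150 and 23.4 CPM in the same order of samples. ADAMTS1 stood at 14.9 and 15.8 CPM in HA FOSL1 (0.08, -0.19 to 0.36), and APCDD1 at 35.8 and 33.5 CPM in the VPR control and at 45.1 and 37.8 CPM in the HA control, with intervals that hold 0. IGFBP5, a gene of the list lowered in the guide samples, stood at 402 and 242 CPM with gRNA2 (-0.73) and 364 and 205 CPM with gRNA3 (-0.82), but at 634 and 1674 CPM in the VPR control (1.40) and 1192 and 2727 CPM in the HA control (1.19). That difference in direction between guides and controls was not tested.

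**Figure D5:**
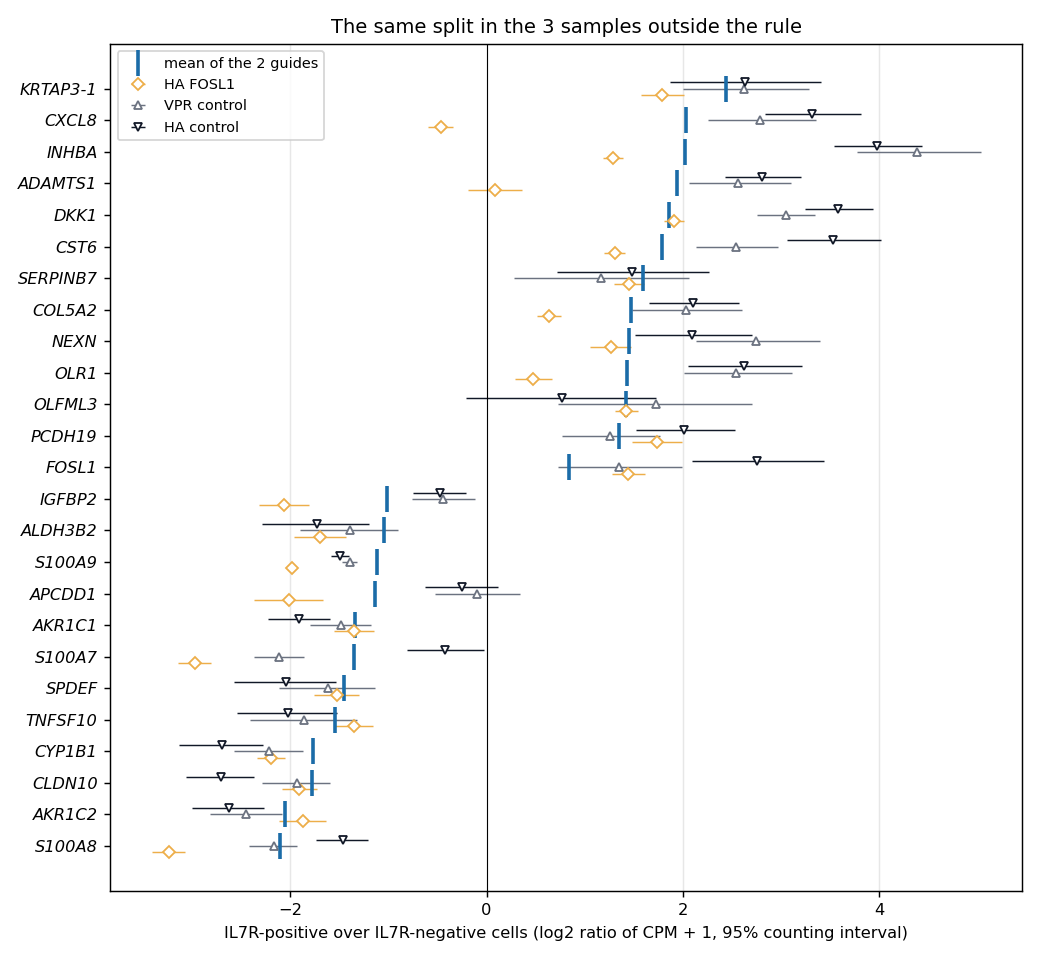
Log2 ratio of CPM + 1 in IL7R-positive over IL7R-negative cells of HA FOSL1, the VPR control and the HA control for the 25 named genes, with 95% counting intervals; blue bars are the mean of the guides. CXCL8 in HA FOSL1 (-0.47) is the one mark on the other side of 0 from the guides.

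Whether the IL7R split differed between HA FOSL1 and the guides was tested with an interaction term in edgeR over 6 sums (1 residual degree of freedom). HA FOSL1 was 1 sample, so the spread comes from the 2 guides alone and HA FOSL1 is assumed to vary like them. Of 13675 genes, 738 (5.4%) passed an adjusted p of 0.05, 234 with a more positive log2 ratio in HA FOSL1 (1.71%) and 504 with a less positive one (3.69%), and DESeq2 called 61. Of the 25 named genes 15 passed, with adjusted p between 2.67e-117 and 0.000328. FOSL1 was the only one of them with a more positive ratio in HA FOSL1. CXCL8 stood at 94.0 CPM in negative and 67.7 CPM in positive cells of HA FOSL1 (-0.47, -0.59 to -0.34), but 1 negative cell held 459 of the 1145 UMIs of its class, and without the top cell of each class the levels were 56.5 and 60.6 CPM (0.10). A CXCL8 UMI was found in 26.7% of positive and 15.6% of negative HA FOSL1 cells. S100A8 stood at 218 and 22.2 CPM in HA FOSL1 (-3.24, -3.41 to -3.07), and COL5A2 at 67.4 and 105 CPM (0.64, 0.51 to 0.76). DKK1, SERPINB7, NEXN, OLFML3 and PCDH19 among the highest and AKR1C2, CLDN10, TNFSF10, SPDEF and AKR1C1 among the lowest did not pass the interaction test.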

How the data were processed

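Cells of 5 MDA-MB-468 samples were counted as 1 library of 10x 3' version 3 chemistry. The authors deposited raw UMI counts per gene (33538 genes) and barcode, made with Cell Ranger, version 4 per the file headers, on hg38 per the submitters' processing notes. They also deposited an assignment of called cells to hashtags with its probability as a fraction (at least 0.900 in assigned cells); which tool made it is not stated in the sources used here. Hashtags with the prefix GOF were taken as the HA samples by elimination. That table placed 15371 cells in 1 sample each; 5181 multiplets, 402 unassigned cells and 274 blanks were left out, and doublets within 1 sample were not called. Cells with at least 1500 genes and at most 20% mitochondrial UMIs were kept.

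Positive cells, deepest first, took the nearest unused negative cell within 10% of their total UMIs; 535 and 839 positive cells gave 532 and 824 pairs. UMIs were summed per class and guide, scaled to CPM without IL7R, and compared as log2 ratios of CPM + 1, which understate the change of low genes. Ratios have exact conditional binomial, levels exact Poisson and shares exact binomial (Clopper-Pearson) 95% intervals, all for counting error only. Sums were tested with edgeR 4.0.16 (quasi-likelihood, TMM, filterByExpr, R 4.3.3), and with DESeq2 1.42.0 as an alternative; adjusted p are Benjamini-Hochberg over all genes tested. The 2 sums of a guide come from the same sample, and this is the pairing behind the block. The fits and ratios were tested on simulated data. Phases were scored with scanpy 1.11.5. The named genes are FOSL1 and the 12 highest and 12 lowest mean log2 ratios at a mean of at least 20 CPM with both guides' intervals on 1 side of 0, plus members of 40 gene lists given beside their list's counts. The cells, genes and lists were chosen with earlier results of these data known. Alternatives covered matching, thinning, thresholds, filters, pseudocount, normalization and left-out cells; matching on FOSL1 UMIs, the 95% hashtag limit, adding the other samples to the fit and leaving out each class's top cell were added after the data were seen.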

Additional observations from a re-analysis of the deposited data

Results flagged for a closer look

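HA FOSL1 was 1 sample, so the spread of the following test comes from the guides alone, and DESeq2 called 61 genes where edgeR called 738. The log2 ratio of IL7R-positive over IL7R-negative cells differed between HA FOSL1 and the guides in an edgeR interaction test for 15 of the 25 named genes. The difference, HA FOSL1 minus guides, was 0.61 for FOSL1. Among the genes highest in the guides it was -0.84 for KRTAP3-1, -2.70 for CXCL8, -0.81 for INHBA, -1.81 for ADAMTS1, -0.53 for CST6, -0.89 for COL5A2 and -1.03 for OLR1. Among the lowest it was -1.14 for S100A8, -0.49 for CYP1B1, -1.54 for S100A7, -1.11 for APCDD1, -0.88 for S100A9, -0.74 for ALDH3B2 and -1.19 for IGFBP2, each a larger fall in HA FOSL1. The CXCL8 value rests in part on 1 negative HA FOSL1 cell with 459 of the 1145 UMIs of its class. Another negative HA FOSL1 cell held 618 of 2345 S100A7, 358 of 2653 S100A8, 937 of 15392 S100A9 and 91 of 1060 INHBA UMIs. Without the top cell of each class, the HA FOSL1 log2 ratio was -2.73 for S100A7 (-2.97 with it) and -3.11 for S100A8 (-3.24). It was -1.92 for S100A9 (-1.98) and 1.38 for INHBA (1.29). The interaction was not fitted without these cells. The negative cells of HA FOSL1 were shallower than its positive cells (median 19844.5 against 21694.5 UMIs), and the part of that gap in these differences was not tested.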

How the results depend on the processing

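Of the 25 named genes, 0 changed direction under any of the alternatives run. For CXCL8 a guide's counting interval no longer lay above 0 with 1 IL7R UMI against 0 and with cells of at least 95% own hashtag UMIs. Its mean log2 ratio over the guides was 0.09 and 1.55 there, against 2.03 in the main setting. The count of genes called by edgeR in the guides, 3454, was 655 with DESeq2 (518 genes had no adjusted p), 1855 with no replicate block for the guide, 910 in cells thinned to 5000 UMIs, 1029 for 1 IL7R UMI against 0, 1973 at no more than 10% mitochondrial UMIs and 1937 at 95% own hashtag UMIs or more, the last chosen after seeing the data. Fewer cells or UMIs enter all of these but the first and second. The interaction count of 738 was 61 with DESeq2. The count of 131 genes at 1.5-fold was 27 for 1 IL7R UMI against 0, 379 at the lower fold tried, 28 at 2-fold, 59 at a mean of at least 50 CPM and 394 with no filter on low values. Each guide taken alone gave between 157 and 177 genes. Without a guide edgeR has no residual degree of freedom and was not run. The number of calls therefore depends on the tool and the filters, while the direction of the named genes did not in the alternatives run. All of these genes but FOSL1 were chosen for large ratios in these cells. The alternatives largely reuse the same cells, so a kept direction was mostly fixed by that choice. A cell with 0 IL7R UMIs at this depth may still make IL7R RNA, and free RNA can give a cell without it a UMI; neither share of cells was measured.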

Other observations

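Some genes outside the rule for named genes were looked at after their values were seen, and are given as values only. The hair keratin gene KRT34 went from 1.68 to 12.6 CPM (log2 ratio 2.35, 1.87 to 2.80) with gRNA2 and from 2.34 to 23.1 CPM (2.85, 2.52 to 3.17) with gRNA3, and in the HA control from 0.699 to 140 CPM. KRTAP2-3, a hair keratin-associated protein like KRTAP3-1, went from 1.76 to 15.5 CPM (2.58) and from 1.88 to 21.9 CPM (2.99). Both lie under the level that the rule asks for, and 1 positive gRNA2 cell held 50 of the 151 KRT34 UMIs of its class. AZGP1, a secreted glycoprotein of luminal epithelium, went from 644 to 320 CPM (-1.01) and from 644 to 336 CPM (-0.93), and the copper-binding protein gene CP from 10.1 to 1.75 CPM (-2.01) and from 7.79 to 2.38 CPM (-1.38).

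A single cell can set a sum. One IL7R-positive gRNA2 cell, with 35714 UMIs in all, held 457 of the 462 CCL5 UMIs, 352 of the 400 IFIT2 UMIs and 250 of the 327 IGFBP6 UMIs of its class, and it is the cell with the 50 KRT34 UMIs. One IL7R-negative cell of the HA control, with 20133 UMIs, held 61 of 63 CCL5, 107 of 110 IFIT2 and 10 of 14 IGFBP6 UMIs. The 3 genes thus peaked in the same cell in each of these classes. IGFBP6 was still called higher by edgeR in the guides, with log2 ratios of 2.94 with gRNA2 and 0.25 (-0.12 to 0.62) with gRNA3. Such a call can thus rest largely on 1 cell.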
